A study of Rattus norvegicus with 72 samples.

Results

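The medial collateral ligament of the sham-operated rat knee was compared between day 14 and day 10 after the operation. The comparison rests on 10 samples, 5 of each day, out of 72 in the whole series, and the samples were taken by their column names and labels. All rats were adult male Sprague-Dawley animals. Sham animals had the operation on both knees under isoflurane with buprenorphine as analgesic, and their ligament was left intact. Per the protocols in the labels, each operation and day had 5 animals, but day 7 has only 3 samples of each operation. The severed groups of days 10 and 14, set beside the sham groups below, had the ligament cut under the same drugs. Total RNA of whole ligament was hybridised to Agilent rat whole-genome arrays, with sham RNA of both days in the dye Cy3 and severed RNA of both days in Cy5, so that no dye difference enters a change between the days. In whole tissue, fewer cells of a type and less RNA per cell cannot be told apart.

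A ligament is a band of densely packed collagen I fibres, laid down and kept by fibroblast-like cells that also make small leucine-rich proteoglycans and thrombospondins. When a ligament heals, fibroblasts lay down a provisional matrix rich in collagens III and V, periostin and other glycoproteins, and metalloproteinases of the Mmp family remodel it. Matricellular genes such as Postn and Cthrc1 are known for being switched on in wounds and fibrous repair, whereas Tnmd, Fmod and Myoc are characteristic of settled tendon and ligament.

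From the genes that changed between the days, 12 were picked by hand, not by rank, and looked up in the RefSeq promoter table of the rat assembly GRCr8. Of these, 10 had an entry. Those of 4 genes of secreted or matrix proteins are shown because these genes are among the largest changes between the days: Postn and Podnl1 had fallen by day 14, and Ucma and Myoc had risen. Smpx and Dnmt3l, which rose by more, are not shown. Each is the 250 bases before the gene's start, 5′ to 3′ on the gene's strand. Capitals mark matches on either strand to the TATA box TATAAA, the AP-1 site TGANTCA and the TEAD site CATTCC.
Postn, chr2:140677811-140678060, + strand: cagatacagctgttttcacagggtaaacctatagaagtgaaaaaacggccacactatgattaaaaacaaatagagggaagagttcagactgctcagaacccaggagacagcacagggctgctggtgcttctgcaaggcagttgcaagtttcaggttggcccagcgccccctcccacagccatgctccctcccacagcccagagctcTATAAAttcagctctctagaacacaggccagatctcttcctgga
Podnl1, chr19:40938632-40938881, - strand: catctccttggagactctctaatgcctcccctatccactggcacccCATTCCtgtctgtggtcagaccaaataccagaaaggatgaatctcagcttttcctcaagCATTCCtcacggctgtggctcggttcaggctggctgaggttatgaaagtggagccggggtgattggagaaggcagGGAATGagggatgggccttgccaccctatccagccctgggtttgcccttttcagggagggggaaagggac
Ucma, chr17:78212997-78213246, - strand: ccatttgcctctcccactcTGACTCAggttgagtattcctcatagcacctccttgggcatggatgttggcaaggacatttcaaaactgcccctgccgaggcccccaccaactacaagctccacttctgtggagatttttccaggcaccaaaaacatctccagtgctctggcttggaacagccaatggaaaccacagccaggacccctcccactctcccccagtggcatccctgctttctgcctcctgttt
Myoc, chr13:77509713-77509962, + strand: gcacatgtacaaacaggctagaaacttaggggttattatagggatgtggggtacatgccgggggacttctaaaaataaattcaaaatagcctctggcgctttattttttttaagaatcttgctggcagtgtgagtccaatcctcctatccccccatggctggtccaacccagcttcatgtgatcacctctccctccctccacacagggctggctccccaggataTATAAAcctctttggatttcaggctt
Postn and Myoc each had a TATA box, at 44 and 26 bases before the start. Podnl1 held 3 TEAD matches, and Ucma held 1 AP-1 match at 231 bases before the start. Over the 33469 promoters of the table, 12.9% held TATAAA, 6.34% TGANTCA and 12.1% CATTCC in the same window. No match of another kind was looked for.

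The quality of the columns bears on every value below. Between 29.3% and 86.5% of gene spots lay above the limit of the negative controls (their 95th percentile) in the sham day 10 columns, against 13.6% to 29.3% on day 14. Negative controls had a median intensity of 29.5 to 49.5 in day 10 replicates 1 to 4 and of 163.5 in replicate 5, and of 46 to 181.5 on day 14. Parts of some columns did not follow the other columns: 36.7% of the spots of day 14 replicate 1, 13.6% of day 10 replicate 5, 5.84% of day 10 replicate 4 and under 2% of day 14 replicates 2 and 5. These stretches were set to missing, so a gene has 3 to 5 values per group. Over spots 500 to 5500 in array order, day 14 replicate 1 followed the median of the columns best at a shift of 214 spots. There r was 0.41, against 0.05 at no shift (Pearson's r of ranks weighted towards bright spots). The other sham columns followed it best at no shift. Samples correlated at 0.63 to 0.89 within day 10, at 0.55 to 0.77 within day 14 and at 0.47 to 0.79 between the days (Pearson's r across probes, which are not independent replicates). Levels below are log2 normalised intensities, and differences are day 14 minus day 10 on the log2 scale with their standard error (SE).

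The sham day 10 columns also stood against the sham columns of other days. Tnmd, which encodes the tendon membrane glycoprotein tenomodulin, had sham minus severed differences of 1.93, 0.65, 1.21 and 2.21 on days 1, 2, 4 and 7, of -0.99 on day 10 and of -0.06 on day 14. Ucma stood at 2.21, 0.86, 2.75 and 3.51 on days 1, 2, 4 and 7, at -2.65 on day 10 and at 2.68 on day 14. Myoc stood at 0.81, 1.08, 0.77 and 4.76 on the first 4 of these days, at -2.23 on day 10 and at 1.06 on day 14. Mmp13, an interstitial collagenase, stood at 0.48, -0.40, -0.59 and -3.63 on days 1, 2, 4 and 7, at 4.06 on day 10 and at -1.93 on day 14. Ucma and Myoc were named for their rise in sham from day 10 to day 14, which favours a low sham value on day 10, so their order is a description. For them day 10 was the 1 day of 6 with sham below severed, for Tnmd day 14 was also slightly below, and for Mmp13 sham was above severed on days 1 and 10. The columns of earlier days have limits of their own. Day 7 had 3 samples per operation. Severed day 7 replicate 2 had a median intensity of 13062, against 93 and 41 in replicates 1 and 3. In that column 39.9% of spots were set to missing, and 23.2% in sham day 7 replicate 3. In the sham and the severed column of day 4 replicate 1 it was 58.2%. Sham and severed RNA carried opposite dyes, and which of them carried Cy3 changed between days. The labels and the column names agree on which columns of day 10 are sham. Whether columns of day 10 were exchanged was not tested, and every direction below depends on the library labels of day 10. Each array held samples of 1 day only, so that the day and anything shared by its arrays cannot be told apart.

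**Figure D1:**
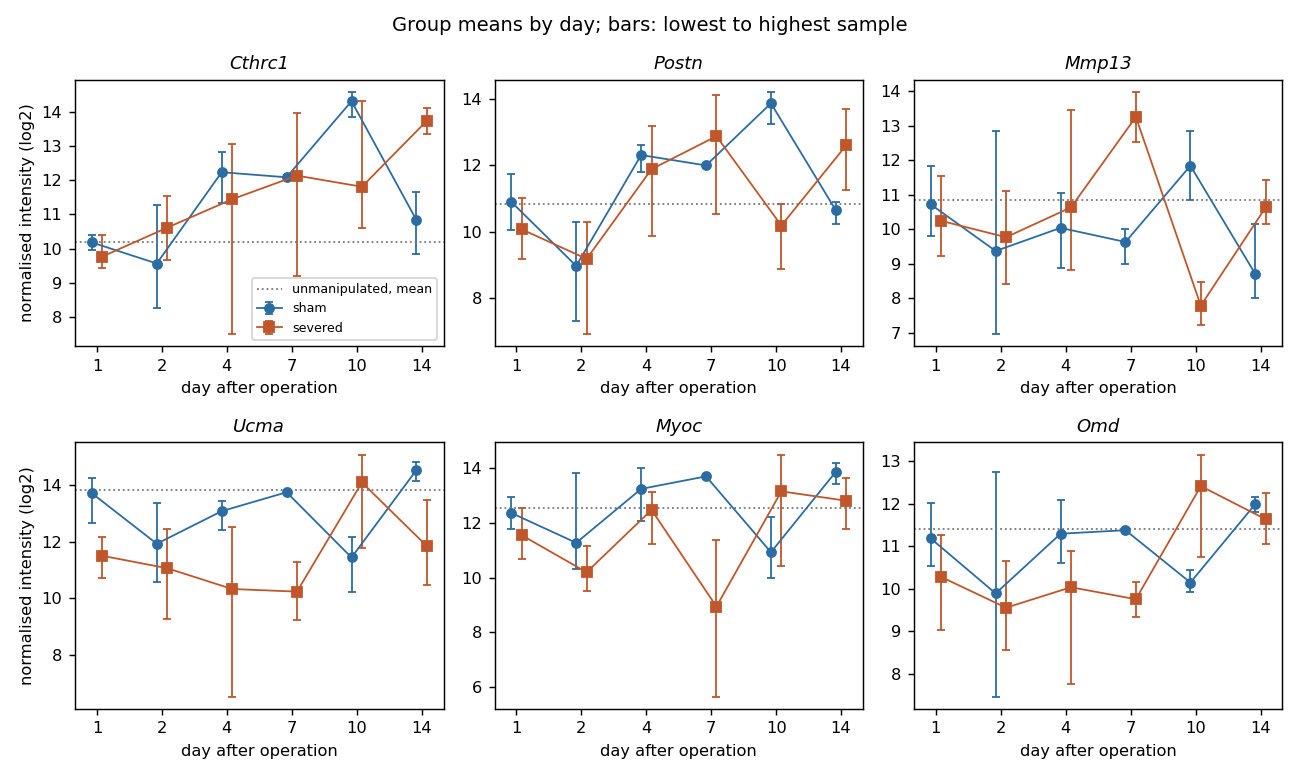
Log2 normalised intensity (y axis) of 6 genes by day after operation (x axis) in sham (circles) and severed (squares) ligament, group means with bars from the lowest to the highest sample, and the mean of unmanipulated ligament as a dotted line. On day 10 sham lies above severed for Cthrc1, Postn and Mmp13 and below it for Ucma, Myoc and Omd, the reverse of day 14.

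By limma, 230 of 36793 genes passed the threshold of an adjusted p of 0.05 (0.625%). Of these 136 were higher on day 14 (0.37%) and 94 lower (0.255%), and 5787 genes (15.7%) had an unadjusted p under 0.05. With median scaling 3987 of 4110 genes that passed were lower, and 842 were higher and 2130 lower with scaling to the 75th percentile, and the median of all genes moved from -0.02 to -0.46 and 0.10. Each probe without a RefSeq name was counted as 1 gene, and 119 of the 230 were such probes. Of the 230 genes, 118 were above the negative controls in every measured sample of at least 1 day, and 77 of those carried a RefSeq name (27 rose, 50 fell). The count depended on single samples. It was 0 without day 10 replicate 1 and 0 without day 10 replicate 3 (4396 and 4339 genes at an unadjusted p under 0.05), 18 without day 14 replicate 5, 54 without day 10 replicate 4, and 90, 97, 89 and 132 without day 10 replicate 2 and day 14 replicates 2, 3 and 4. Without day 14 replicate 1, the column with the most missing spots, it was 276. Among the 24 named genes of largest change, all kept their direction in all 27 alternative settings that measured them, whereas the adjusted p of each reached 0.252 or more in at least 1 setting.

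**Figure D2:**
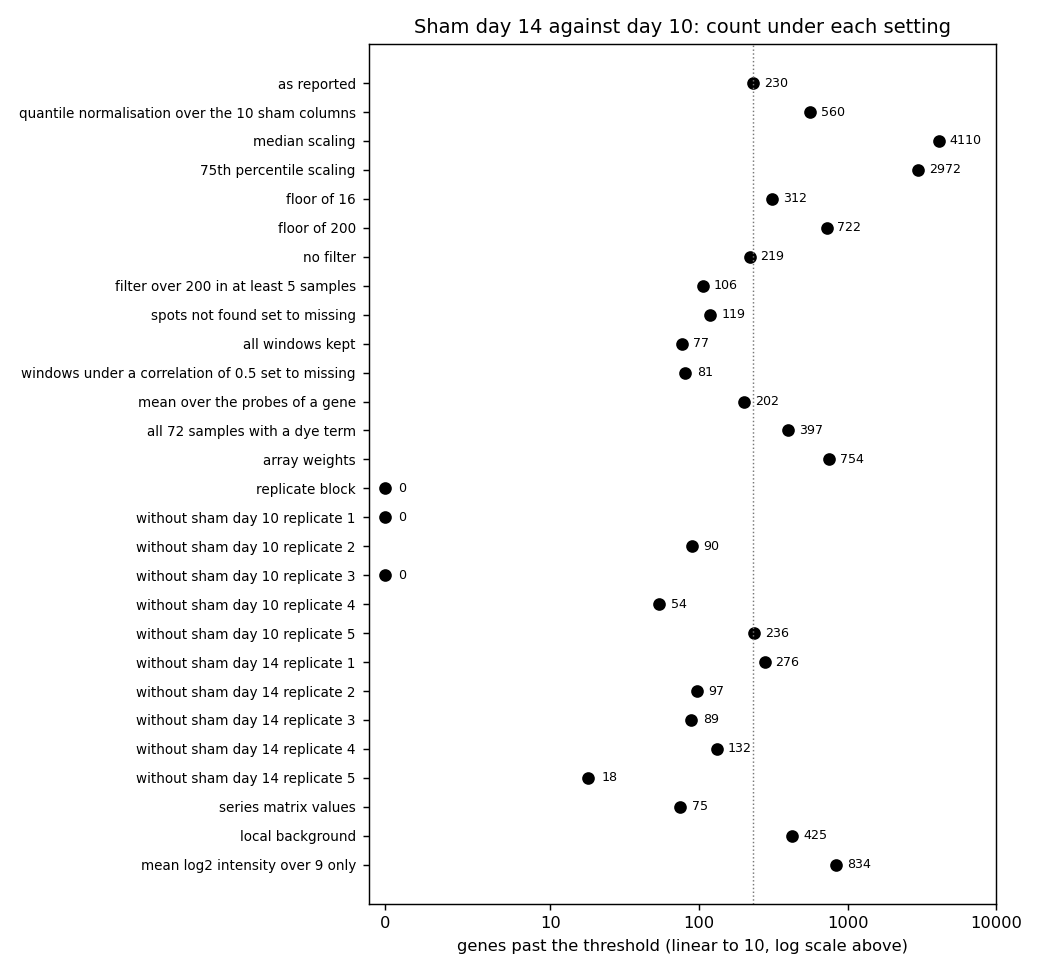
Number of genes past an adjusted p of 0.05 (x axis, linear to 10 and logarithmic above) as reported (230, dotted line) and under each other setting (y axis). The points run from 0, with the replicate block and without day 10 replicates 1 or 3, to 4110 with median scaling.

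The largest named fall was that of Cthrc1. Cthrc1, a secreted glycoprotein of wounds and fibrous repair, stood at 14.34, 14.32, 14.60, 13.86 and 14.52 in the sham day 10 samples and at 10.51, 11.11, 11.65, 11.07 and 9.85 on day 14. All 5 samples of day 10 lay above all 5 of day 14, and over all genes tested the days did not overlap in 7.96% (3.79% higher and 4.16% lower on day 14). The days overlapped for none of the 230 genes that passed, so a lack of overlap adds nothing to a call. The difference was -3.49 ± 0.36 (adjusted p = 0.0124), an 11.2-fold lower intensity. Postn, which encodes periostin, a matricellular protein that binds collagen, stood at 14.18, 13.23, 14.21 and 13.83 on day 10 and at 10.73, 10.90, 10.69 and 10.25 on day 14, with 4 values a day. The days did not overlap, and Postn fell by 3.22 ± 0.35 (adjusted p = 0.0165). These were the 2 members that fell among 14 tested glycoproteins of healing matrix, and none rose. The list had a median of -0.35, against -0.02 over all genes tested, and 13 of 14 members lay below 0. Thbs2, a matricellular thrombospondin, stood at -0.82 ± 0.29 and Has2, a hyaluronan synthase, at -0.92 ± 0.31 (adjusted p = 0.209 and 0.18).

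Among the fibrillar collagens, 3 of 9 tested members fell and none rose (median -0.85), and all 3 were chains of collagen V, which sets the diameter of collagen I fibrils. Col5a1 stood at 13.34, 12.15, 12.90, 13.11 and 13.11 on day 10 and at 9.81, 10.38, 10.87, 10.45 and 9.52 on day 14, and it fell by 2.71 ± 0.35 (adjusted p = 0.0167). Col5a2 went from 15.05 ± 0.08 to 12.86 ± 0.67 (SD, n = 5 each) and Col5a3 from 11.97 ± 0.73 to 9.61 ± 0.41, with differences of -2.19 ± 0.34 and -2.35 ± 0.38. The 3 probes of Col5a2 gave -2.19, -2.39 and -2.22. Col1a1, the main chain of ligament collagen, stood at 15.88 ± 0.07 and 15.86 ± 0.12, and Col3a1 at 15.97 ± 0.01 and 15.35 ± 0.48. The Col1a1 probe was near saturation in 3 samples of day 10 and 2 of day 14, and that of Col3a1 in 5 and 1, which leaves their differences compressed. A dimmer Col1a1 probe gave -2.11. Col1a2 stood at -1.27 ± 0.36 (adjusted p = 0.136).

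Of 14 other collagens tested, 3 fell and none rose (median -1.01). Col18a1, a basement membrane collagen, stood at 11.85, 11.84, 11.80, 11.85 and 11.89 on day 10 and at 9.23, 9.05, 9.81 and 10.05 in the 4 measured samples of day 14, and fell by 2.31 ± 0.30. Col4a1, of the basement membrane network, fell by 2.05 ± 0.28 and Col8a1, a short-chain collagen, by 2.00 ± 0.36, with 2 of its 5 day 14 samples above the negative controls. A second probe of Col4a1 gave -0.24. In collagen processing and secretion 1 of 18 members fell (median -0.80), Loxl1, a cross-linking enzyme, by 1.67 ± 0.29. Serpinh1, the collagen chaperone, stood at -1.44 ± 0.29 (adjusted p = 0.0539) without overlap between the days. Endoplasmic reticulum chaperones had no member past the threshold among 19 (median -0.32), with Hsp90b1 at -1.12 ± 0.24 (adjusted p = 0.0605).

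**Figure D3:**
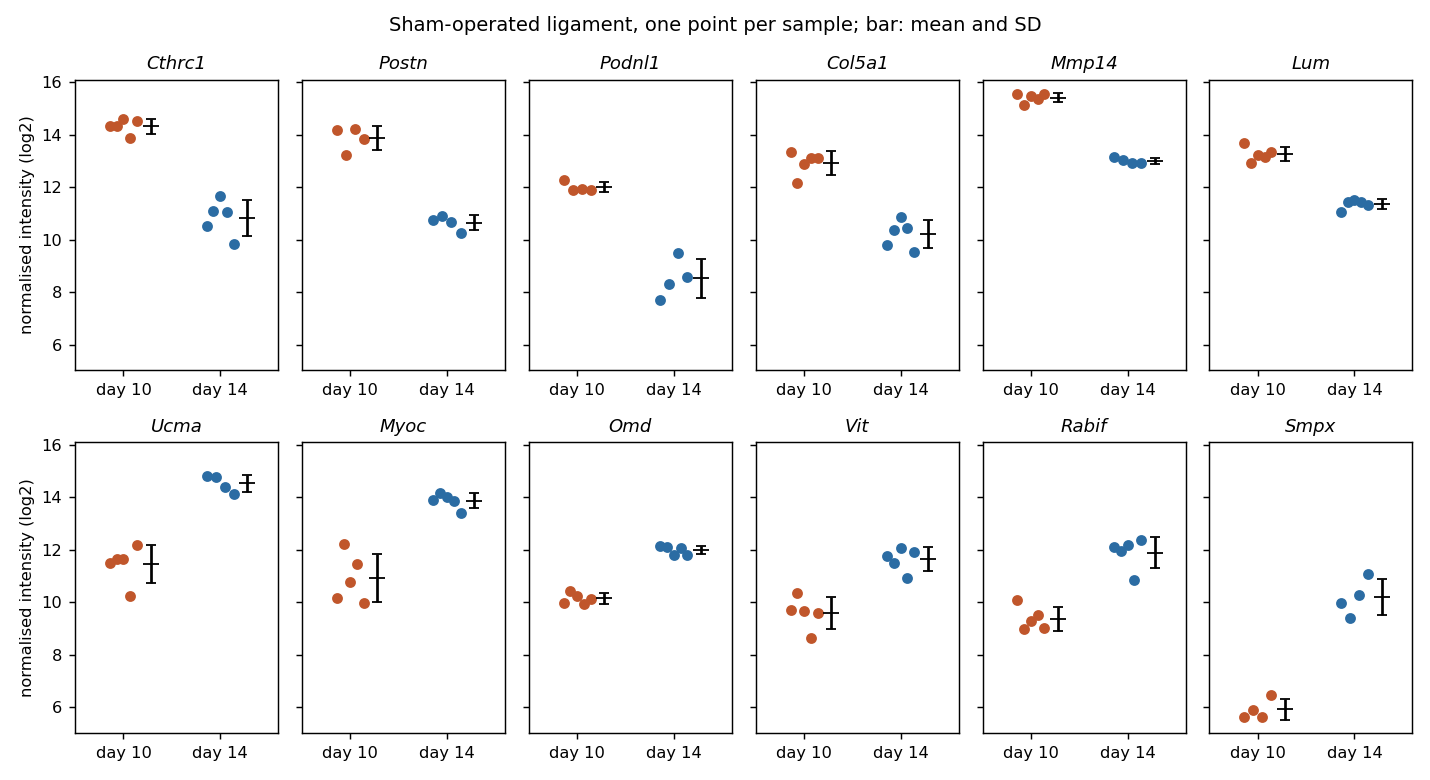
Log2 normalised intensity (y axis) of 12 genes in each sham sample of day 10 and day 14 (x axis), with the mean and SD beside the points. For each of the 12 genes the samples of the days do not overlap. The upper 6 genes are lower on day 14 and the lower 6 are higher.

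Small leucine-rich proteoglycans, which bind collagen fibrils and steer their assembly, moved in both directions: 3 of 12 tested members fell and 1 rose (median -0.15). Podnl1 stood at 12.28, 11.91, 11.91 and 11.90 on day 10 and at 7.71, 8.32, 9.50 and 8.56 on day 14, and fell by 3.48 ± 0.41 (adjusted p = 0.0167). Only 1 of its 4 day 14 values was above the negative controls. Aspn (asporin) fell by 2.20 ± 0.35 and Lum (lumican) by 1.92 ± 0.26. Omd (osteomodulin) stood at 9.98, 10.45, 10.24, 9.93 and 10.14 on day 10 and at 12.15, 12.12, 11.82, 12.06 and 11.81 on day 14. All 5 samples of day 14 lay above those of day 10, and the difference was 1.85 ± 0.25 (adjusted p = 0.0167). Fmod, the abundant fibromodulin of tendon, stood at 15.45 ± 0.52 (SD, n = 5) and 15.88 ± 0.14 (SD, n = 4), near saturation in all 4 values of day 14.

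Matrix proteases had 2 of 20 members that fell and none that rose, and their median of -1.07 was the lowest of the 36 lists. Mmp14, a membrane-bound collagenase that activates Mmp2, stood at 15.55, 15.12, 15.49, 15.35 and 15.55 on day 10 and at 13.14, 13.05, 12.92 and 12.90 on day 14. It fell by 2.41 ± 0.27 (adjusted p = 0.0152), 5.31-fold in intensity. Mmp2, a gelatinase, fell by 1.91 ± 0.31 (adjusted p = 0.0288), and its second probe gave -1.76. Mmp13 stood at 12.84, 10.85, 12.26 and 11.42 on day 10 and at 8.01, 8.55, 10.14 and 8.11 on day 14. The days did not overlap, and the difference of -3.14 ± 0.59 had an adjusted p of 0.0524. Only 1 of its 4 day 14 values was above the negative controls. Of 13 protease inhibitors tested, 1 fell: A2m, which traps proteases, stood at -2.23 ± 0.31 (adjusted p = 0.0189). A2m was not above the negative controls on day 14, so the size of its fall is uncertain. Timp1, the inhibitor of metalloproteinases, stood at -1.17 ± 0.27 (adjusted p = 0.078).

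Other named genes that fell had various roles. Megf6, a secreted protein with EGF repeats, stood at 12.21 ± 0.54 and 9.11 ± 0.92 (SD, n = 5 each) and fell by 3.10 ± 0.46. Cfi, the complement factor I protease, fell by 2.62 ± 0.46 and was the 1 member that passed among 16 complement and coagulation genes. Gadd45a, a stress-induced growth arrest gene, fell by 2.36 ± 0.44. On day 14, 3 of 5 samples were above the negative controls for Megf6, 1 of 5 for Cfi and 2 of 5 for Gadd45a. Sox4, a transcription factor, stood at -2.70 ± 0.47 and Jup, which encodes the junction protein plakoglobin, at -2.48 ± 0.40. Gaa, a lysosomal glucosidase, stood at -3.11 ± 0.44 and Pitpna, a phosphatidylinositol transfer protein, at -3.02 ± 0.42. Dusp1, an immediate early phosphatase, stood at -1.83 ± 0.28. From Sox4 to Dusp1, none of these genes was above the negative controls in the measured day 14 samples, so the size of each fall is uncertain. Dusp1 was the 1 of 21 immediate early genes that fell, and Nr4a1, a nuclear receptor of that list, stood at 1.92 ± 0.43 (adjusted p = 0.0697).

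Ligament and tendon markers had 2 of 15 tested members that rose and none that fell (median 0.43). Myoc, which encodes myocilin, a secreted glycoprotein found in tendon and ligament, stood at 10.16, 12.21, 10.78, 11.48 and 9.98 on day 10 and at 13.88, 14.17, 14.01, 13.87 and 13.42 on day 14. The difference was 2.95 ± 0.43 (adjusted p = 0.0203), and no sample of day 10 reached a sample of day 14. Vit, which encodes the matrix protein vitrin, rose by 2.06 ± 0.36 (adjusted p = 0.0343). Tnmd stood at 13.37 ± 0.97 and 14.31 ± 0.18 (adjusted p = 0.318), and its difference turned to -0.62 with median scaling. Thbs4, a thrombospondin of tendon matrix, stood at 15.81 on both days with 3 and 2 samples near saturation. Prg4, the lubricant proteoglycan, and Cilp, a cartilage and ligament matrix protein, stood at 0.09 ± 0.36 and 0.09 ± 0.38, and both turned negative with median scaling. Comp, the oligomeric matrix protein, stood at -1.0 ± 1.24, or at 0.44 without day 14 replicate 1, where its value of 7.79 lay below those of the other 9 samples. Col12a1, a fibril-associated collagen of the same list, stood at -1.98 ± 0.62 (adjusted p = 0.16) with no overlap between the days and 1 of 5 day 14 samples above the negative controls.

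Ucma, a small secreted protein of growth plate cartilage, stood at 11.51, 11.64, 11.65, 10.25 and 12.19 on day 10 and at 14.81, 14.79, 14.39 and 14.14 in the 4 measured samples of day 14. It rose by 3.08 ± 0.41 (adjusted p = 0.0187) and was the 1 of 15 cartilage and joint lining genes that passed. The defining cartilage markers Acan, Col2a1 and Matn1 had no member above the negative controls in all 10 samples, and their summed level ran from 9.38 to 10.61 on day 10 and from 9.72 to 10.34 on day 14. Rabif, a guanine nucleotide exchange factor for Rab proteins, rose by 2.52 ± 0.36 (adjusted p = 0.0203), from 9.38 ± 0.45 to 11.90 ± 0.60 (SD, n = 5 each). Its dimmer probes gave 0.67 and 0.13.

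The remaining named genes of largest rise have no settled role in ligament. Smpx, a small protein of striated muscle, was not above the negative controls in the 4 measured samples of day 10. It stood at 9.99, 9.41, 10.28 and 11.06 on day 14. The difference was 4.27 ± 0.42 (adjusted p = 0.0124), and its size is uncertain because of the dim day 10 signal. Replicates 1 and 3 of day 10 stood at 5.64, the lowest value the processing allows, so the SE and the adjusted p are uncertain too. Dnmt3l, a cofactor of DNA methyltransferases, stood at 9.72, 10.35, 10.01, 6.97 and 7.82 on day 10 and at 12.78, 12.84, 12.52 and 12.18 on day 14, and rose by 3.61 ± 0.67 (adjusted p = 0.0446). Cyct, the testis form of cytochrome c, rose by 2.94 ± 0.34, Srebf2, a regulator of sterol synthesis, by 2.68 ± 0.52 and Mcm3ap, a nuclear export factor, by 2.49 ± 0.42. Tlcd5, Prr3 and C19h16orf87 rose by 2.60 ± 0.47, 2.53 ± 0.49 and 2.61 ± 0.48. The C19h16orf87 gene had a second probe that gave -0.72, and dimmer second probes gave 0.09 for Srebf2, 0.39 for Vom2r31 and 1.86 for Dnmt3l. On day 10, 2 of 5 samples were above the negative controls for Cyct and 3 of 5 for Srebf2 and Vom2r31. Vom2r31, a vomeronasal receptor of a large family of near-identical genes, rose by 2.57 ± 0.39, and its identity is uncertain. Cenpf, a centromere protein, passed with 2.06 ± 0.33, but no sample of either day was above the negative controls. Of the 21 cell cycle genes tested, 11 lay above 0 and 10 below (median 0.06). Members of lowest p that lay below 0 were Plk1, a mitotic kinase, at -1.76 ± 0.37 (adjusted p = 0.0604), and Ccna2, a cyclin, at -1.38 ± 0.31 (adjusted p = 0.0731). Cdk1, the kinase partner of Ccna2, stood at -1.25 ± 0.32 (adjusted p = 0.102). For each of them the days did not overlap, and none passed. A second probe of Plk1 gave 0.595 and a much dimmer one of Cdk1 0.22. Cdk1 was above the negative controls in all measured samples, Plk1 in 1 of 5 samples of day 14 and Ccna2 in no sample of day 14.

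Genes of blood and of other cell types were followed beside these. Of 9 red cell genes 1 rose, Ahsp, which stabilises alpha globin, by 1.97 ± 0.36 (adjusted p = 0.0434), and the list's median was 0.99. Alas2, the first enzyme of haem synthesis in red cells, stood at 1.46 ± 0.30 (adjusted p = 0.0584) with no overlap. The summed level of red cell markers ran from 14.48 to 16.39 in 5 samples of day 10 and from 16.64 to 17.44 in 4 of day 14. The days did not overlap, and the part of this level in the other differences was not tested. The sum includes Hbb-b1, near saturation in 2 samples of day 10 and in all 4 measured samples of day 14. In day 10 replicate 4 Hbb-b1 stood at 6.29, against 15.15 or more in the other samples of that day. Macrophage markers had no member past the threshold among 18 (median -0.47), with Cd68 at -1.06 ± 0.29 (adjusted p = 0.117) and Gpnmb at -2.61 ± 0.50 (adjusted p = 0.0548). Of the 18, 15 lay below 0 and 3 above. Lyz2 of this list stood at 4.15 ± 1.97 (adjusted p = 0.347), with day 10 values of 14.97, 6.80, 14.51 and 5.64. The summed level of macrophage markers was 13.15 to 14.94 on day 10 and 12.89 to 14.60 on day 14. Skeletal muscle genes had none among 24 (median 0.66), while 6 had an unadjusted p under 0.05 with a higher level on day 14 and 0 with a lower one. Among them Myh7, the slow myosin heavy chain, stood at 2.51 ± 0.85 and Tnnc1, the slow troponin C, at 1.80 ± 0.49 (adjusted p = 0.19 and 0.111). The list was not uniform, with 15 members above 0 and 9 below. The muscle genes Acta1 and Myl11 stood at -2.19 and -0.88 in sham (adjusted p = 0.45 and 0.76). Without 1 sample Acta1 ran from -3.158 to -0.355 and Myl11 from -1.301 to 0.481. The summed muscle markers overlapped, at 15.65 to 17.55 and 16.21 to 17.17, and include Myl11, near saturation in 1 sample of day 10 and 2 of day 14. Neutrophil genes had none among 14 (median 0.61) and lymphocyte genes none among 13 (median 0.43). In each of these 2 lists only 3 members were above the negative controls in every measured sample of at least 1 day. Il1b, of the neutrophil list, stood at 1.13 ± 0.29 (adjusted p = 0.101), and its second probe gave 0.35. Over the 36 lists, 545 of 598 members were tested, and 23 lists had no member past the threshold. Of the 4 defining ligament markers, 3 were above the negative controls in every measured sample, and Comp was so in all but 1.

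**Figure D4:**
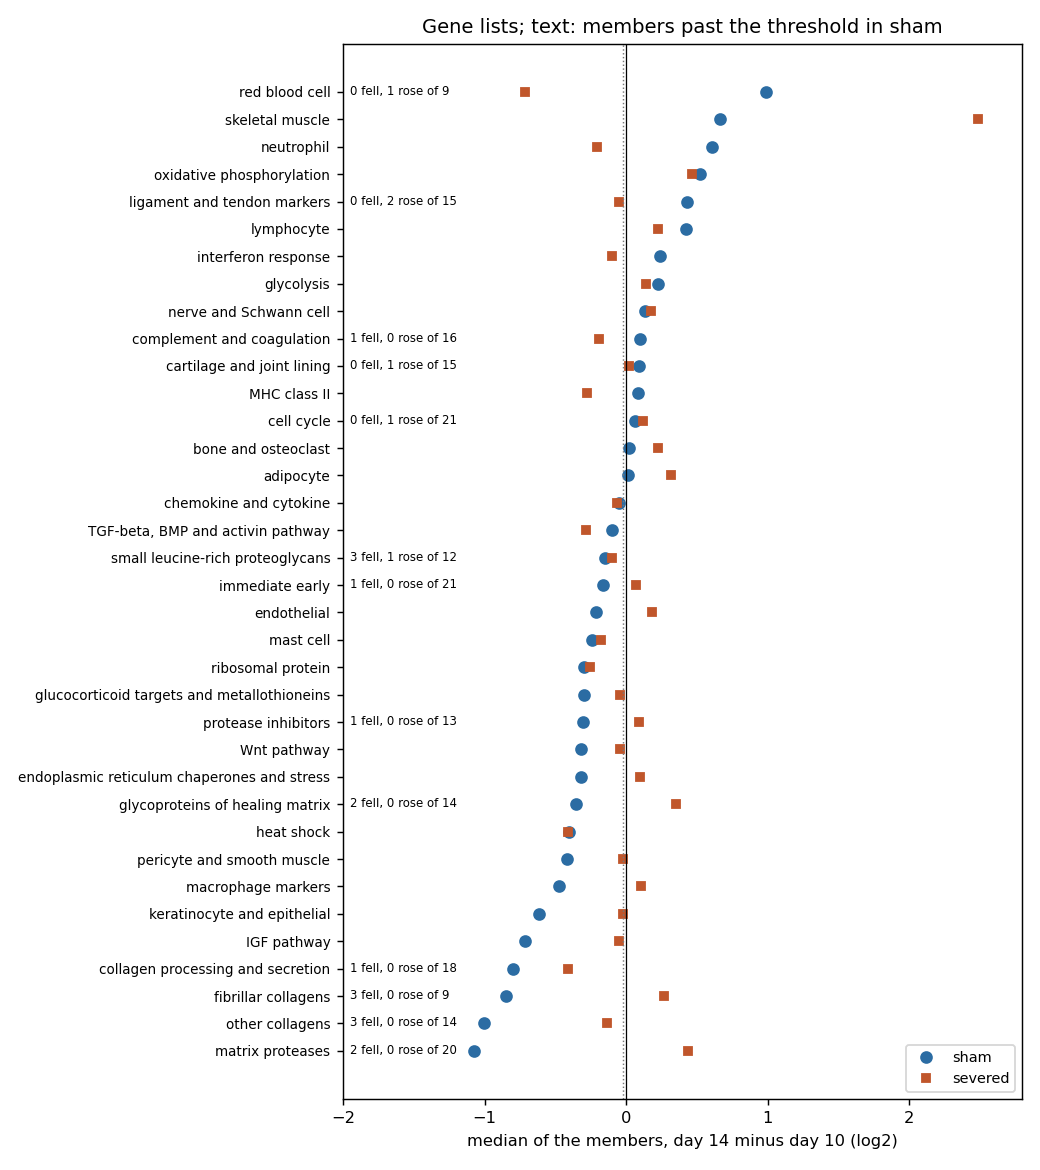
Median difference of each gene list between day 14 and day 10 (x axis, log2) in sham (circles) and severed (squares) ligament, with the number of members past the threshold in sham written at the left where any passed. The dotted line is the median of all genes, -0.02. Matrix proteases and collagens lie lowest in sham and red cell genes highest.

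Growth factor lists had no call. TGF-beta, BMP and activin genes had none past the threshold among 29 (median -0.10), and 17 lay below 0. Values included the BMP target Id1 at 1.36 ± 0.28 (adjusted p = 0.0571) and Inhba, the activin A subunit, at 1.29 ± 0.35 (adjusted p = 0.116). Id3, also a BMP target, stood at -0.90 ± 0.24 (adjusted p = 0.102) and Ltbp2, a latent TGF-beta binding protein family member, at -1.11 ± 0.34 (adjusted p = 0.161), not above the negative controls on day 14. The IGF pathway had none among 11 (median -0.72), with Igfbp3, a binding protein, at -1.63 ± 0.34 (adjusted p = 0.0658) and Igf1 itself at -0.85 ± 0.26 (adjusted p = 0.144).

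The severed ligament of the same days was set beside these changes. By limma, 1 of 36793 genes passed for severed day 14 against day 10 (0.00272%), with 3007 (8.17%) at an unadjusted p under 0.05. This gene was Ampd1, the muscle AMP deaminase, which stood at 5.31 ± 0.60 in severed ligament (adjusted p = 0.0312) and at 1.44 ± 0.59 in sham. The 24 skeletal muscle genes had a median of 2.49 in severed ligament and of -2.79 for the sham change minus the severed change, the lowest such median of the 36 lists, though no member passed that test. Myl11, a fast muscle myosin light chain, had a difference of -4.22 ± 0.92 (adjusted p = 0.0929). The part of muscle content in the differences between the operations below was not tested. A difference between the operations was tested on each array as sham minus severed, since both columns of a number shared an array on days 10 and 14, as identical spot flags showed in all 9 pairs whose flags were compared. The change differed for 41 genes (0.111%), of which 21 were among the 230. The sham change was the higher for 7 (0.019%) and the lower for 34 (0.0924%). In those 34 the sham level was lower on day 14 while the severed level was higher. This count was 0 without array 3 of day 10 and 0 without array 2 or array 5 of day 14, 4, 3 and 6 without arrays 1, 2 and 4 of day 10, and 21 and 26 without arrays 1 and 3 of day 14. These tests share the sham columns with the comparison above and are not independent of it.

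Cthrc1 lay above severed on the arrays of day 10 by 3.51, 2.51, 3.10, 3.26 and 0.20 and below it on day 14, at -2.85, -3.03, -1.91, -2.72 and -4.07. It fell by 3.49 in sham and stood at 1.94 ± 0.62 in severed ligament, and the difference of the changes was -5.43 ± 0.63 (adjusted p = 0.016). Postn showed a difference of -5.97 ± 0.67 (adjusted p = 0.016) and Mmp13 of -5.99 ± 0.80 (adjusted p = 0.0198), each over 4 arrays a day, with severed changes of 2.42 ± 0.59 and 2.85 ± 0.46. For Ucma the difference was 4.99 ± 0.84 (adjusted p = 0.0467) and for Rabif 3.77 ± 0.54 (adjusted p = 0.0187). On the fifth array of day 10 the sham minus severed values were 0.20 for Cthrc1, 0.22 for Aspn, 0.36 for Mmp2, 0.41 for Ucma and 0.03 for Rabif, each closer to 0 than on the other 4 arrays. The same held there for Megf6 at 1.20, Lum at 0.67, Mmp14 at 0.51, Col5a1 at -0.47 and Myoc at -0.44. It did not hold for Cfi at 2.02, Gadd45a at 1.85 and A2m at 1.40. The fifth array of day 10 had 2.24% of spots not found by the scanner software, against 60.3% to 80.6% on the other 4. Lum, Aspn, A2m, Mmp2, Podnl1, Megf6, Cfi and Gadd45a also differed, all with a fall in sham, at differences of -2.54 to -4.83. Col5a1, Mmp14 and Myoc did not pass (adjusted p = 0.0721, 0.0827 and 0.0586), with differences of -3.16 ± 0.64, -2.54 ± 0.52 and 3.29 ± 0.62.

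**Figure D5:**
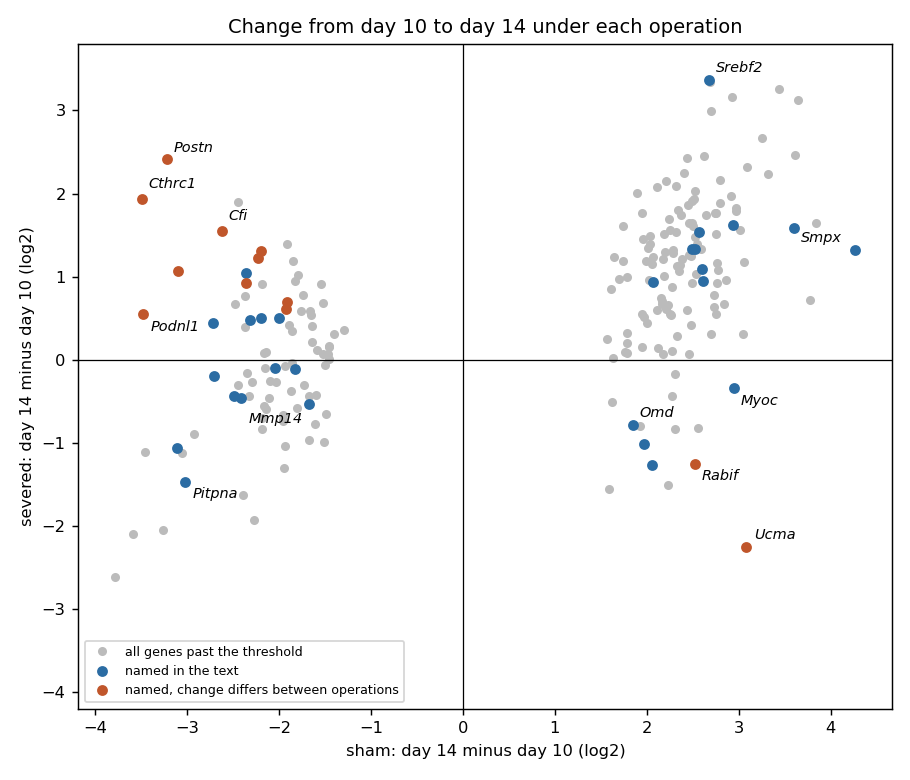
Change from day 10 to day 14 in sham (x axis, log2) against the change in severed ligament (y axis, log2) for the 230 genes past the threshold in sham (grey), with genes named in the text in colour. Genes whose change differed between the operations include Cthrc1 (-3.49 in sham, 1.94 in severed) and Ucma (3.08 and -2.25), whereas Srebf2 lies at 2.68 and 3.37.

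Several genes that rose in sham had severed values of the same sign. Srebf2 stood at 3.37 in severed ligament, Cyct at 1.63, Dnmt3l at 1.58, Mcm3ap and Smpx at 1.33 each and Vom2r31 at 1.54. The difference of the changes did not pass for any of these 6 (adjusted p from 0.19 to 0.573).

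The levels of earlier sham ligament place the 2 days. The 3 sham samples of day 7 were also in Cy3. Over the 50 named genes that fell, the median level was 1.16 above sham day 7 on day 10, where 46 genes were higher, and -0.93 from it on day 14, where 5 were. Over the 27 that rose, the median stood at -0.19 on day 10 and 1.59 on day 14, where 26 were higher than on day 7. These genes were chosen for their difference between the days, so the medians are a description. Cthrc1 stood at 12.09 in sham ligament on day 7, 14.33 on day 10 and 10.84 on day 14. Its mean in unmanipulated ligament, hybridised in Cy5, was 10.20. Ucma stood at 13.75, 11.45 and 14.53 on those 3 days and at 13.83 in unmanipulated ligament.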

How the data were processed

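Ligament RNA was measured on Agilent arrays carrying 44289 spots, 41012 distinct probes after 2917 control spots were left out. Values are deposited as intensities, and the file headers describe them as median foreground minus background of 1 scanner channel. No normalisation is given in the sources used here. A deposited series matrix of log2 values, used as an alternative, correlated at 0.956 to 0.999 with log2 of the intensities in the sham columns and left 2.25% to 81.1% of spots blank. Its direction is that of the intensities, its scaling is unknown, and its column medians lay between 6.994 and 7.553.

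All 72 columns were quantile-normalised, values below 50 set to 50, log2 taken, spots averaged per probe, and probes kept that exceeded 100 in at least 3 of the 10 sham samples with at least 3 values per day. Each gene was represented by its brightest probe on average. Names came from RefSeq's GRCr8 table, which named 45.2% of probes, 15382 of the genes tested. Before normalisation, windows of 860 spots in array order were set to missing in ligament columns where the Spearman correlation with the median rank of the other columns was under 0.3. The window length, the array order and the use of only the brightest 10% of spots were set after looking at the columns, where windows of 500 spots had been looked at first, and before these tests were run.

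Differences between days were tested with limma 3.58.1 (R 4.3.3; lmFit, eBayes, Benjamini-Hochberg over all genes, threshold 0.05) on the 10 sham columns, on the 10 severed columns, and on per-array differences. The p values measure the spread between these samples. The scripts were tested on simulated data. Members, gene lists and tests were chosen with earlier results of these data known, so no list is independent evidence. Named genes were the 12 of largest change in each direction that passed and were above background, 24 fixed genes, of which Acta2 had no named probe that could be tested, and up to 4 of lowest p per list. Same-numbered samples of the days did not deviate together (r from -0.169 to 0.064), so replicate numbers do not pair samples. The number of arrays limits the precision.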

Additional observations from a re-analysis of the deposited data

Results flagged for a closer look

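Among 74 genes named or followed here, 16 of 146 groups of 4 or 5 samples had a sample far from the others by Dixon's test, where chance flags about 5% of groups. Day 14 replicate 1, the sample with the most missing spots, was low for Comp (7.785, the others from 14.703 to 15.233), Myl11 (8.788, others from 14.708), Adipoq (5.644, others from 10.044) and Tlcd5 (10.365, others from 11.803). Day 10 replicate 4 was low for Hbb-b1 (6.289, others from 15.154), Thbs4 (15.457) and Igf1 (14.974). Day 14 replicate 4 was low for Rabif (10.849), Fmod (15.664) and Ahsp (13.295), and day 14 replicate 2 for Cenpf (7.189). On day 10, replicate 1 was low for Tlcd5 (7.608) and high for Podnl1 (12.281) and Cd68 (12.252), replicate 2 was low for A2m (10.005), and replicate 3 was high for Cenpf (5.974). Cenpf and the lowest Adipoq value lay below the negative controls.

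For 13 of the 74 genes the change from day 10 to day 14 differed between sham and severed ligament by limma on the per-array differences (adjusted p under 0.05). The log2 differences, sham change minus severed change, were -5.989 for Mmp13, -5.974 for Postn, -5.429 for Cthrc1, -4.833 for Podnl1, -4.172 for Cfi, -4.166 for Megf6, -3.503 for Aspn, -3.454 for A2m, -3.286 for Gadd45a, -2.608 for Mmp2 and -2.535 for Lum, and 4.992 for Ucma and 3.775 for Rabif. Of 15 ligament and tendon markers, 6 were higher in sham on day 10, against 13, 7, 11, 13 and 9 on days 1, 2, 4, 7 and 14. Whether the day 10 columns carry the right labels was not tested.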

How the results depend on the processing

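The 24 named genes of largest change kept their direction under all alternatives that measured them, but the count of calls moved widely and the cause was not tested. For sham day 14 against day 10 the count of 230 became 560 with quantile normalisation over the 10 sham columns, 4110 with median scaling, 2972 with scaling to the 75th percentile, 722 with a floor of 200, 106 with the filter at 200 in at least 5 samples, 119 with spots not found set to missing, 77 with all windows kept, 81 with windows under a correlation of 0.5 set to missing, 397 in the fit over all 72 samples with a dye term, 754 with array weights and 75 from the series matrix. The series matrix shared 47 calls with the 230. It was 312 with a floor of 16, 219 with no filter and 202 with the mean over probes. Leaving out 1 sample gave 0 to 276. With the replicate number as a block the count was 0 (4467 at an unadjusted p under 0.05). The numbers do not pair the samples. Alternatives chosen after seeing the data gave 425 with a local background and 834 over genes of mean log2 intensity above 9.

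For sham change minus severed change the count of 41 became 5403 with median scaling and 338 with a floor of 200, it was 29 with all windows kept and 29 with a local background, 38 in a 4-group fit and 32 in that fit with the replicate block, and leaving out 1 array gave 0 to 53. For severed ligament the count of 1 became 10 with a local background, chosen after seeing the data, and 0 to 16 without 1 sample.

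Genes that had not passed changed sign as follows. With median scaling Tnmd stood at -0.618, Fmod -0.363, Prg4 -1.66, Cilp -1.647, Adipoq -0.024 and Gapdh -0.975. With 75th percentile scaling Tnmd stood at -0.394, Fmod -0.131, Prg4 -1.437, Cilp -1.423 and Gapdh -0.752. With spots not found set to missing Thbs4 stood at 0.057, Comp 0.745, Col1a1 0.011, Myl11 0.858 and Fos 0.651, and in the series matrix Thbs4 0.04, Comp 0.777, Col1a1 0.019, Myl11 0.852 and Fos 0.565. At a window correlation of 0.5 Comp stood at 0.418 and Myl11 at 0.467. Thbs4 was 0.002 with quantiles over the sham columns and 0.001 with array weights, where Col1a1 was 0.003. Cilp was -0.54 with the mean over probes, and Pecam1 0.403 with a local background. Without 1 sample the ranges were -0.089 to 0.034 for Thbs4, -0.081 to 0.298 for Prg4, -0.108 to 0.263 for Cilp, -1.417 to 0.444 for Comp, -0.048 to 0.027 for Col1a1 and -1.301 to 0.481 for Myl11.

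Dim signal limits what could be seen: 7960 of 36793 genes tested were above the negative controls in every measured sample of at least 1 day, and 97 of the 230 had all 10 values.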
